A study of Mus musculus with 14 samples.

Results

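The 8 genes described here encode the core of activator protein 1 (AP-1): the Fos family (Fos, Fosb, Fosl1 and Fosl2), the Jun family (Jun, Junb and Jund) and the related factor Atf3. They were taken by name from a table of 24015 genes, and all 8 were present and passed the filter on low counts. RNA was measured in 14 libraries of mouse pluripotent cells, 2 in each of 7 groups, and the series names the 2 libraries of a group as biological duplicates. MM401 is an inhibitor of the histone H3 lysine 4 methyltransferase MLL1, and the study used it with leukemia inhibitory factor (LIF) to turn primed epiblast stem cells (EpiSC) towards the naive state of embryonic stem cells (ESC).

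MM401 day 3 and MM401 P2 were CD1/JF1 EpiSC given 100 µM MM401 with LIF and knockout serum replacement in knockout DMEM, for 3 days or for 6 days (passage 2). Replicate 2 of MM401 P2 carries the title P2b, and no source used here says whether it shares the passage of replicate 1. rES passage 6 and rES passage 30 were reverted lines with the genotype CD1-deltaTSIX/JF1, kept in LIF with 25 µM MM401 after passage 3. rES passage 30 without MM401 had the same genotype and the same LIF medium with the inhibitor left out. ESC (CD1/JF1, from blastocysts) grew with LIF on feeder cells, in GMEM with serum replacement. EpiSC (CD1/JF1, also from blastocysts) grew in knockout DMEM with serum replacement and basic fibroblast growth factor (bFGF), without LIF in their listed medium. MM401 and LIF therefore came together and bFGF left the medium with them, no group had LIF without MM401 from the EpiSC state at day 3 or P2, and the reverted lines differ from the other groups in genotype, so these effects cannot be told apart.

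As background, AP-1 is a dimer of basic leucine zipper proteins that binds DNA at TGANTCA sites. Fos proteins need a Jun partner to bind, whereas Jun proteins can also pair with each other. Several of these genes are immediate early genes: kinase cascades of growth factors and stress switch on their transcription within minutes through factors already in the cell, among them serum response factor with its ELK partners, CREB and Jun itself, and their RNAs decay fast. Fibroblast growth factor signalling through ERK is a well known route to Fos.

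The stretch of 250 bases before the transcription start is shown for the 3 genes that were at least 2.80-fold lower than in EpiSC in each of the 5 groups tested against it (Fos, Fosb and Jun), and for Fosl2, which followed another course. Sequences and starts are from RefSeq on GRCm38.p6, which held a promoter for 7 of the 8 genes (Fosl1 had no entry), and each is written 5′ to 3′ on the strand of its gene. The stretches are chr12:85473640-85473889 (plus strand), chr7:19310046-19310295 (minus strand), chr4:95052223-95052472 (minus strand) and chr5:32136222-32136471 (plus strand). Capitals mark TGACG, the core contained in the cAMP response element TGACGTCA, and TGACATCA, a variant of the full element.
Fos: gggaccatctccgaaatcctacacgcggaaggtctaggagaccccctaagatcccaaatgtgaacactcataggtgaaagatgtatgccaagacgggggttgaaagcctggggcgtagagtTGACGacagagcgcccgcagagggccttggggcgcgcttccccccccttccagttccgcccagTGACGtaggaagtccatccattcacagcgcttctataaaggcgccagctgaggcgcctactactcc
Fosb: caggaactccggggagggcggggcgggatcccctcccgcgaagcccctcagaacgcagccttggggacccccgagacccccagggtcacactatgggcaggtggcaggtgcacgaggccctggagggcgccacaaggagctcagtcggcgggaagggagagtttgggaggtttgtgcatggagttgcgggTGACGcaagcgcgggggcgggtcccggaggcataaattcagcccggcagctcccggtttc
Jun: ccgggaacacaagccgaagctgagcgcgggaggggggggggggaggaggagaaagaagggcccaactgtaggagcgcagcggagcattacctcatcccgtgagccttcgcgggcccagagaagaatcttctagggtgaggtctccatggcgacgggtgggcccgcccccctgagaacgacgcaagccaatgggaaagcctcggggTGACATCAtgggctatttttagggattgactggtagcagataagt
Fosl2: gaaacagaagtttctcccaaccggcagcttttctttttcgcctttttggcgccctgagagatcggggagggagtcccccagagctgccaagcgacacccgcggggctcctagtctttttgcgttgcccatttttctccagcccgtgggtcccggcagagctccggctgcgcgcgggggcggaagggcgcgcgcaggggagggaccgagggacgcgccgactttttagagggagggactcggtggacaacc
Position -1 is the base before the start. Fos held TGACG from -129 and from -66, and TATAAA from -33. Fosb held TGACG from -60, and Jun held TGACATCA from -45. Fosl2 held none of these. Among 32851 promoters of the same length, on either strand, TGACG occurred in 17.8%, TGACATCA in 2.93% and TATAAA in 12.4%. The AP-1 site TGANTCA (6.75% of promoters), the full element TGACGTCA (1.55%) and the CArG box of serum response factor (1.47%) matched in none of the 7 windows. Junb (chr8:84978749-84978998, minus strand) and Atf3 (chr1:191183334-191183583, minus strand) also held TGACG (Atf3 on the other strand), and Jund (chr8:70697489-70697738, plus strand) did not. These are letter matches in a short window, and factor binding was not measured. Nothing further upstream than 250 bases was searched. A missing match, that of the CArG box included, therefore does not tell whether a gene has such a site beyond the window.

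Libraries held 20831588 to 23677089 counts, except for 113221270 and 116086115 at MM401 day 3 and 74952496 and 80383376 at MM401 P2. Levels below are CPM (counts in proportion to the scaled library size), and an adjusted p is from the quasi-likelihood F test of edgeR over 16247 genes, called under 0.05, so that it measures only the spread between these libraries. Summed over 12 naive markers, the libraries held 2651 to 5844 CPM outside EpiSC, against 624 and 599 CPM in EpiSC. The sum of 12 primed markers was 302 to 530 CPM in MM401-treated and reverted cells and 1118 and 1121 CPM in ESC, against 2005 and 1991 CPM in EpiSC. Single primed markers were split in ESC against EpiSC, with 6 higher and 5 lower (median log2 fold change 0.23), beside 37% and 37.5% of all genes. Feeder fibroblast markers, 20 in all and none at 0 in any library, are given beside the genes they moved with. Scatter of replicates over counting error was largest in rES passage 30 (chi-square per degree of freedom 14.1, against 1.25 to 8.09 in the other groups). Replicate 2 of rES passage 30 held 2.01% of its counts in the ribosomal precursor Rn45s, against 0.548% in replicate 1. Rn45s entered this measure of scatter, and its part was not separated. The measure also grows with depth, so it does not rank the groups on a like basis.

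Fos and Fosb were high in EpiSC and low in every other group. Both encode Fos proteins with transactivating domains, and Fos is the founding member of the family. Fos held 26.0 and 25.8 CPM at MM401 day 3, 16.5 and 14.8 CPM at MM401 P2, 39.8 and 39.0 CPM in rES passage 6, 20.4 and 16.9 CPM in rES passage 30 without MM401, 25.9 and 27.6 CPM in rES passage 30, and 7.23 and 7.39 CPM in ESC, against 295 and 293 CPM in EpiSC. The EpiSC mean was 7.46 times that of the next group, rES passage 6, no library of another group came near it, and ESC were lowest. Fosb held 3.75 and 5.27 CPM at MM401 day 3, 2.55 and 2.61 CPM at MM401 P2, 9.87 and 11.1 CPM in rES passage 6, 3.09 and 2.70 CPM in rES passage 30 without MM401, 2.43 and 2.09 CPM in rES passage 30, and 3.21 and 3.53 CPM in ESC, against 180 and 171 CPM in EpiSC. For Fosb the EpiSC mean was 16.7 times that of rES passage 6, again the next highest, and rES passage 30 was lowest. In bulk RNA, fewer cells with a transcript and less transcript per cell cannot be told apart.

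In ESC, Fos was 40.2-fold lower than in EpiSC (log2 fold change -5.33 ± 0.07 SE, adjusted p = 1.65e-39) and Fosb 52.1-fold lower (-5.70 ± 0.12, adjusted p = 2.23e-30). Counted from the largest fall, they ranked 51 and 37 among the 16247 genes. At MM401 day 3, the first time sampled, Fos was 11.3-fold lower than in EpiSC (-3.50 ± 0.05, adjusted p = 2.07e-38) and Fosb 38.8-fold lower (-5.28 ± 0.09, adjusted p = 9.48e-33). From day 3 to P2 both fell again, by 0.73 ± 0.06 and 0.81 ± 0.12 on the log2 scale (adjusted p = 1.42e-14 and 1.96e-07). The reverted line at passage 6 stood higher than MM401 P2, by 1.33 ± 0.06 for Fos and 2.02 ± 0.13 for Fosb (adjusted p = 3.16e-21 and 1.29e-15). From passage 6 to passage 30 the genes then fell by 0.56 ± 0.07 and 2.21 ± 0.17 (adjusted p = 3.80e-08 and 2.74e-12). The decline of Fosb with passage was the 73rd largest fall of all genes tested.

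Fos and Fosb differed in where the reverted line stood against ESC. At passage 6 both were higher than in ESC, Fos 5.39-fold (2.43 ± 0.09, adjusted p = 5.51e-25) and Fosb 3.12-fold (1.64 ± 0.16, adjusted p = 5.83e-11). At passage 30 Fos was still 3.65-fold higher than in ESC (1.87 ± 0.09, adjusted p = 1.84e-20), whereas Fosb stood at 2.26 ± 0.24 CPM (SD, n = 2), against 3.37 ± 0.22 CPM in ESC. That lower level of Fosb passed the test (-0.57 ± 0.22, adjusted p = 0.0236) but not without rES passage 30 replicate 2 (adjusted p = 0.140) or ESC replicate 2 (0.119).

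**Figure D1:**
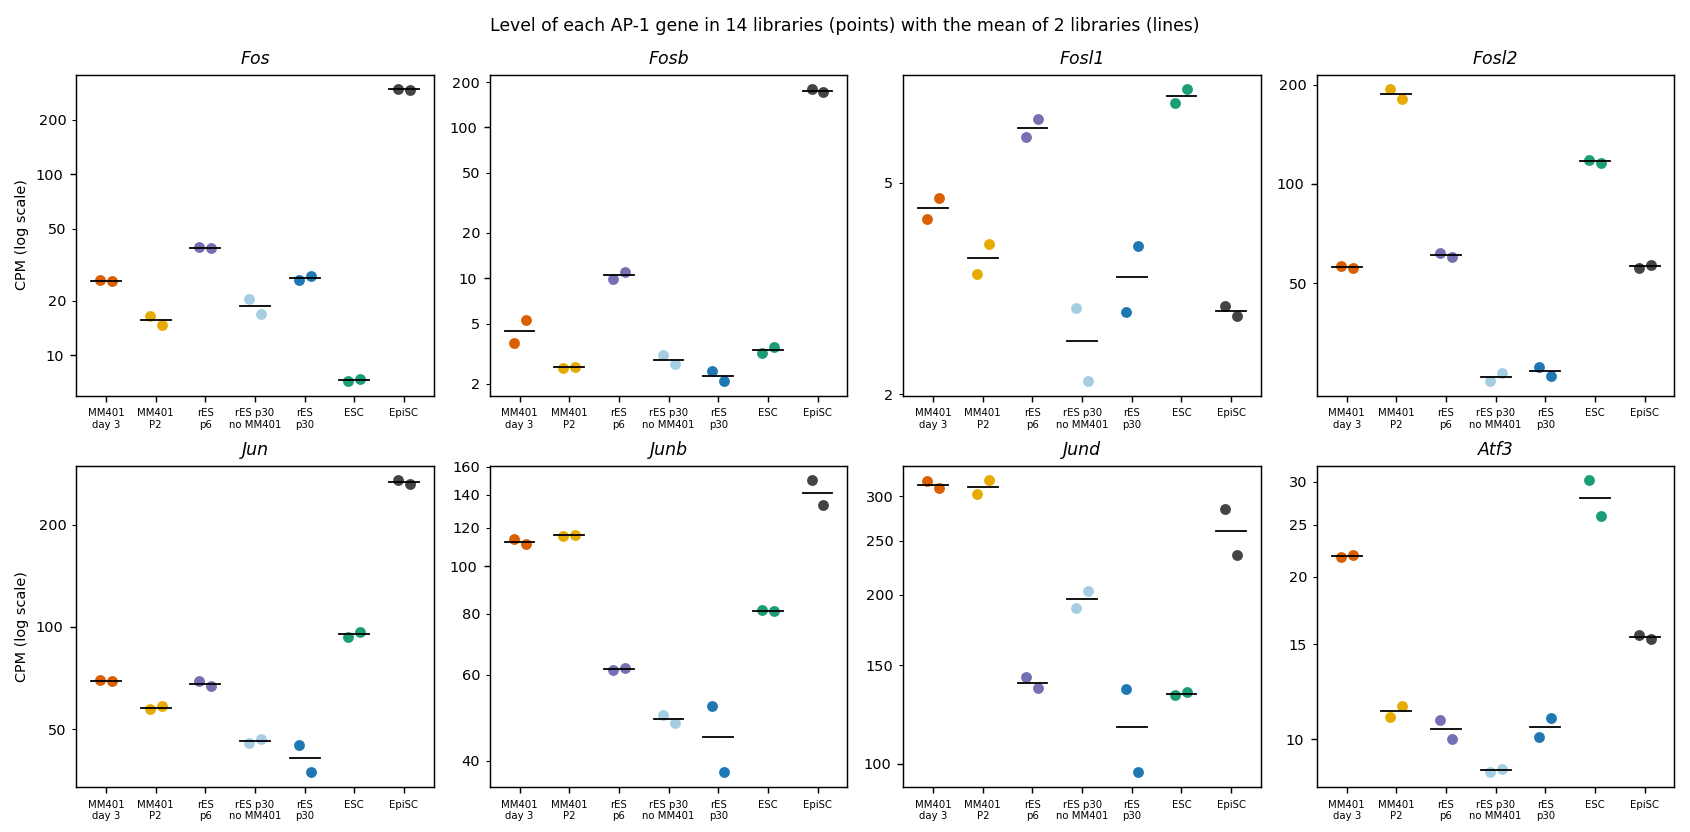
Level of each AP-1 gene in CPM on a log scale (vertical axis, a range of its own per gene) in the 7 groups, with 1 point per library and a line at the mean of 2 libraries. Fos, Fosb, Jun and Junb were highest in EpiSC, Fosl2 was highest at MM401 P2 and Atf3 in ESC.

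Jun, the founding member of the other family and a gene whose own protein acts on its promoter, had group means most like those of Fosb among the other members, over a smaller range. Jun held 69.7 and 69.4 CPM at MM401 day 3, 57.4 and 58.4 CPM at MM401 P2, 69.2 and 67.1 CPM in rES passage 6, 45.4 and 46.8 CPM in rES passage 30 without MM401, 45.0 and 37.4 CPM in rES passage 30, and 93.7 and 96.5 CPM in ESC, against 270 and 263 CPM in EpiSC. EpiSC stood apart again, but ESC now came second and the passage 30 lines last. Jun was lower than in EpiSC by 2.80-fold in ESC (-1.49 ± 0.05, adjusted p = 7.89e-27), 3.83-fold at day 3 (-1.94 ± 0.05, adjusted p = 8.29e-32), 4.60-fold at P2 (-2.20 ± 0.05, adjusted p = 3.12e-33) and 6.44-fold in rES passage 30 (-2.69 ± 0.05, adjusted p = 2.00e-34). The reverted line lay below ESC for Jun, where it lay above ESC for Fos: by 0.48 ± 0.05 on the log2 scale at passage 6 and by 1.20 ± 0.06 at passage 30 (adjusted p = 3.33e-10 and 2.73e-21). Over the 7 group means of log2 CPM, Pearson's r was 0.91 between Fosb and Jun, 0.91 between Fos and Fosb and 0.70 between Fos and Jun. These r describe 7 groups and were not tested.

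Junb and Jund, Jun proteins that transactivate less strongly than Jun in many assays, changed less. Junb held 114 and 111 CPM at MM401 day 3, 116 and 116 CPM at MM401 P2, 61.4 and 61.9 CPM in rES passage 6, 49.7 and 47.8 CPM in rES passage 30 without MM401, 51.8 and 37.9 CPM in rES passage 30, and 81.5 and 81.0 CPM in ESC, against 150 and 133 CPM in EpiSC. The treated libraries stood just under EpiSC, and the reverted lines lay below ESC. Against EpiSC, Junb fell by 0.80 ± 0.09 in ESC, 1.20 ± 0.09 in rES passage 6 and 1.65 ± 0.10 in rES passage 30 on the log2 scale (adjusted p = 2.89e-06, 5.84e-08 and 2.47e-09). Its falls at day 3 (-0.33 ± 0.08, adjusted p = 0.00235) and at P2 (-0.29 ± 0.08, adjusted p = 0.00632) were small, and with scaling by total counts they were -0.51 and -0.44. The P2 call was lost without EpiSC replicate 1 (-0.20, adjusted p = 0.0525).

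Jund, which is commonly expressed at a steady level in many cells, held 319 and 311 CPM at MM401 day 3, 303 and 320 CPM at MM401 P2, 143 and 137 CPM in rES passage 6, 190 and 203 CPM in rES passage 30 without MM401, 136 and 96.6 CPM in rES passage 30, and 133 and 134 CPM in ESC, against 285 and 236 CPM in EpiSC. Day 3 and P2 overlapped, and ESC fell between the libraries of rES passage 30. The treated libraries lay above EpiSC, by a difference that missed the threshold (0.27 ± 0.14 at day 3, adjusted p = 0.106, and 0.26 ± 0.14 at P2, adjusted p = 0.124), and with total counts it was 0.10 and 0.11. It was lower than in EpiSC in ESC (-0.97 ± 0.15, adjusted p = 0.000520), rES passage 6 (-0.90 ± 0.15, adjusted p = 0.000775) and rES passage 30 (-1.16 ± 0.15, adjusted p = 0.000176). From MM401 P2 to rES passage 6 both genes fell, Junb by 0.91 ± 0.09 and Jund by 1.16 ± 0.14 (adjusted p = 7.93e-07 and 0.000147).

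Junb and Jund also varied between replicates of rES passage 30 more than Fos or Fosl2 did. Their exons are among the richest in GC of all genes tested (62.6% and 67.1%, the 98.5 and 99.8 percentiles), and replicate 2 minus replicate 1 of rES passage 30 ran against GC content over all genes (Spearman rho -0.32 over 15465 genes, against -0.09 to 0.20 in the other groups). Fosl1, at the 91.4 percentile of GC, was instead higher in replicate 2 of rES passage 30 (2.86 and 3.80 CPM, from 67 and 78 counts). Junb (150 and 133 CPM) and Jund (285 and 236 CPM) also differed between the EpiSC replicates, where rho was -0.03. The part of GC content in these results was not tested. Without rES passage 30 replicate 1, the difference of passage 30 from passage 6 was -0.69 for Junb and -0.52 for Jund (adjusted p = 2.95e-09 and 0.00333). Without replicate 2 it was -0.25 and -0.04 (adjusted p = 0.00619 and 0.850), against -0.45 ± 0.10 and -0.26 ± 0.16 with both (adjusted p = 0.00629 and 0.296). Jund further shares 877 exon bases with the antisense gene Gm11175, and as no source used here names the library strand, reads of the pair cannot be told apart.

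**Figure D2:**
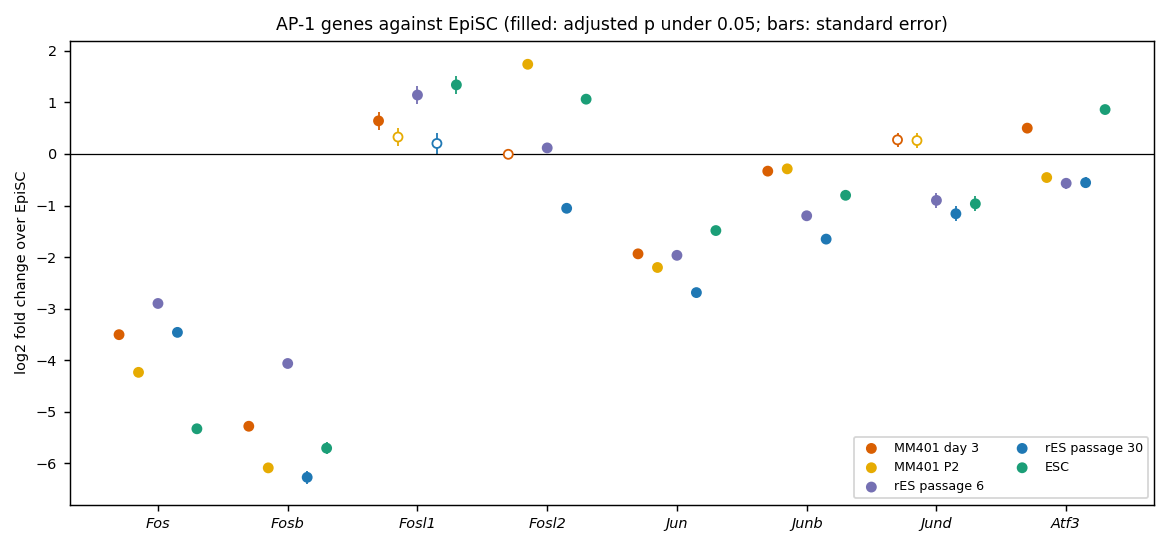
Log2 fold change of each AP-1 gene against EpiSC (vertical axis) at MM401 day 3 and P2 and in rES passage 6, rES passage 30 and ESC, filled where called and with bars of 1 standard error. Fos, Fosb and Jun lie below 0 in all 5 groups (Fosb between -6.27 and -4.06), whereas Fosl2 lies between -1.05 and 1.74.

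Fosl1 and Fosl2, Fos proteins that lack the strong transactivating domain of Fos, did not share the EpiSC peak. Fosl1 was low throughout, with 4.27 and 4.69 CPM at MM401 day 3, 3.37 and 3.84 CPM at MM401 P2, 6.08 and 6.58 CPM in rES passage 6, 2.91 and 2.12 CPM in rES passage 30 without MM401, 2.86 and 3.80 CPM in rES passage 30, and 7.05 and 7.49 CPM in ESC, against 2.94 and 2.81 CPM in EpiSC. ESC and rES passage 6 lay above all libraries of the other groups, and MM401 P2, rES passage 30 with and without MM401 and EpiSC overlapped from one neighbour to the next. Relative to EpiSC, Fosl1 rose by 1.34 ± 0.18 in ESC, 0.64 ± 0.17 at day 3 and 1.14 ± 0.18 in rES passage 6 (adjusted p = 1.88e-08, 0.000828 and 6.67e-07). It fell from passage 6 to passage 30 by 0.94 ± 0.18 (adjusted p = 0.000117). Fosl1 shares 1163 exon bases with Ccdc85b on the other strand, and reads of the pair likewise cannot be told apart without strand.

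Fosl2 was highest at MM401 P2. It held 56.3 and 55.6 CPM at MM401 day 3, 194 and 181 CPM at MM401 P2, 61.8 and 60.1 CPM in rES passage 6, 25.3 and 26.8 CPM in rES passage 30 without MM401, 27.9 and 26.2 CPM in rES passage 30, and 118 and 116 CPM in ESC, against 55.6 and 56.8 CPM in EpiSC. Day 3 and EpiSC overlapped, as did the passage 30 lines with and without MM401, while P2 and ESC each stood apart. From day 3 to P2 Fosl2 rose 3.35-fold (1.74 ± 0.04, adjusted p = 9.32e-31), then fell to rES passage 6 (-1.62 ± 0.05, adjusted p = 1.58e-28) and again to rES passage 30 (-1.17 ± 0.06, adjusted p = 4.48e-19). In ESC it was 2.09-fold higher than in EpiSC (1.06 ± 0.05, adjusted p = 1.53e-21). The small rise of rES passage 6 over EpiSC (0.12 ± 0.05, adjusted p = 0.0485) was lost in 10 of 12 other settings, and with total counts it was -0.01.

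Feeder fibroblast markers moved with Fosl2 across the treated and reverted cells. Their sum was 6235 and 6277 CPM at MM401 day 3, 18340 and 18030 CPM at MM401 P2, 3447 and 3402 CPM in rES passage 6, 1535 and 1600 CPM in rES passage 30 without MM401, 1614 and 1605 CPM in rES passage 30, and 5194 and 5182 CPM in ESC, against 5391 and 5446 CPM in EpiSC. All 20 rose from day 3 to P2, all 20 fell from P2 to rES passage 6 and all 20 fell again to rES passage 30, while in ESC against EpiSC 8 rose and 9 fell. The marker sum was nearly the same in ESC and EpiSC, where Fosl2 was higher in ESC. The genes whose 7 group means were most like those of Fosl2 were Frzb, Tbx15 and Mxra8 (r = 1.00, 0.99 and 0.99 among 11493 genes). They too were higher in ESC than in EpiSC, at 14.3 and 7.06 CPM for Frzb, 20.8 and 11.0 CPM for Tbx15 and 88.4 and 41.8 CPM for Mxra8. The part of feeder cells in the course of Fosl2 was not tested. Fos was lower at P2, where the marker sum was highest, than at day 3. The part of feeder cells in the level of Fos was not tested either. Whether feeder cells or other cells carried the marker RNA in each group was not measured.

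**Figure D3:**
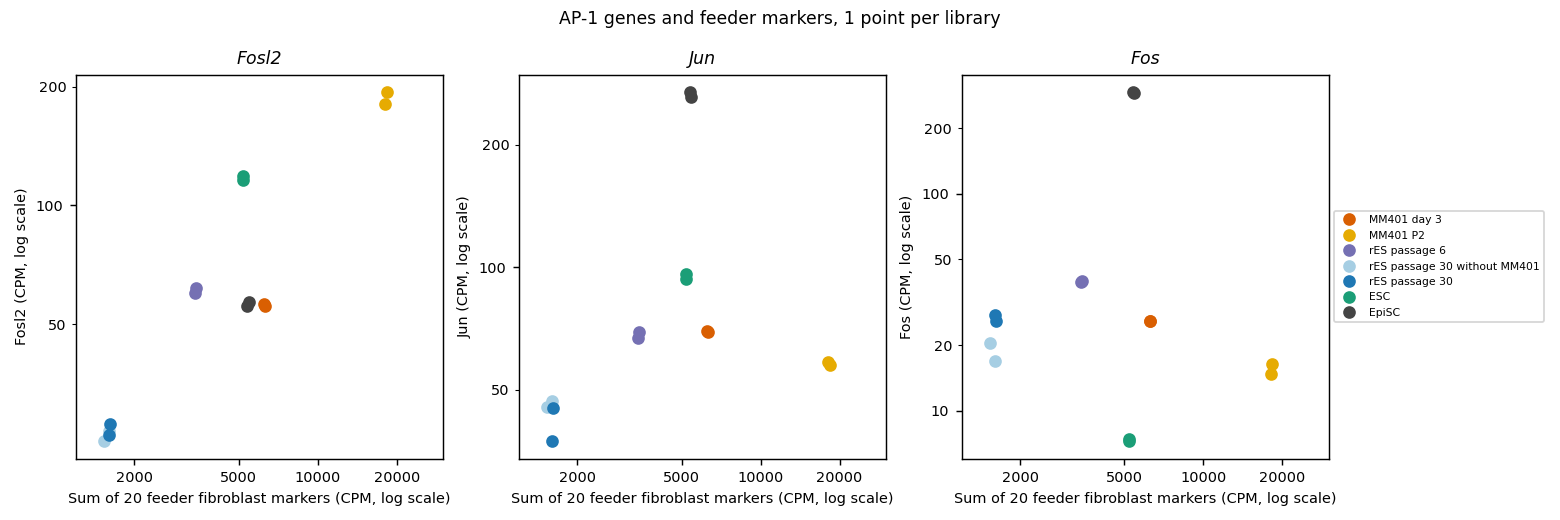
Level of Fosl2, Jun and Fos (vertical axes, CPM, log scale) against the summed level of 20 feeder fibroblast markers (horizontal axis, CPM, log scale), 1 point per library, coloured by group. MM401 P2 has both the highest marker sum (18340 and 18030 CPM) and the most Fosl2 (194 and 181 CPM), whereas Fos and Jun are highest in EpiSC at marker sums of 5391 and 5446 CPM.

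Atf3, a stress-induced factor that can pair with Jun proteins, was highest in ESC and next highest at day 3. It held 21.8 and 22.0 CPM at MM401 day 3, 11.0 and 11.5 CPM at MM401 P2, 10.9 and 10.0 CPM in rES passage 6, 8.68 and 8.82 CPM in rES passage 30 without MM401, 10.1 and 10.9 CPM in rES passage 30, and 30.2 and 25.9 CPM in ESC, against 15.6 and 15.4 CPM in EpiSC. Only the rES passage 6 and passage 30 libraries overlapped among neighbours in this order. Against EpiSC, Atf3 rose by 0.86 ± 0.09 in ESC and by 0.50 ± 0.08 at day 3 (adjusted p = 5.03e-11 and 1.42e-06), but was lower at P2 (-0.46 ± 0.09, adjusted p = 1.62e-05), so that it fell between those times by 0.96 ± 0.08 (adjusted p = 2.44e-14). Scaling by total counts made the day 3 rise 0.33. Genes of the integrated stress response, the programme driven by ATF4 that also reaches Atf3, moved with Atf3 in some comparisons and not in others. Of 18, all rose in ESC and 17 rose at day 3 against EpiSC, and 14 fell from day 3 to P2. The shares over all genes were 37% higher in ESC, 38.7% higher at day 3 and 33.3% lower from day 3 to P2. Against EpiSC they were 42.1% higher and 33.8% lower at P2, and 38.7% higher and 35.1% lower in rES passage 6. At P2 against EpiSC, however, 14 of the 18 were higher and 3 lower (median 0.47), where Atf3 was lower, and in rES passage 6 against EpiSC 8 were higher and 9 lower. In the reverted lines Atf3 was lower than in ESC by 1.43 ± 0.10 at passage 6 and 1.42 ± 0.10 at passage 30 (adjusted p = 3.18e-16 and 3.20e-16), where 17 of the 18 stress genes were lower too. Among all genes, 33% were lower than in ESC at passage 6 and 35.8% at passage 30. Chac1, one of the 18 stress genes, was among the 3 genes whose group means were most like those of Atf3 (r = 0.98), with Eif1ad (0.98) and Hirip3 (0.98).

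Counted together, the 8 genes were called about as often as other genes in most comparisons. In ESC against EpiSC all 8 were called, 3 higher and 5 lower, where 74.5% of all genes tested were called (37% higher, 37.5% lower). At MM401 day 3 it was 6, with 2 higher and 4 lower, beside 76.6% of all genes (38.7% higher, 37.9% lower). At MM401 P2 it was also 6, with 1 higher and 5 lower, beside 75.9% (42.1% higher, 33.8% lower). All 8 were called in rES passage 6, 2 higher and 6 lower, beside 73.8% (38.7% higher, 35.1% lower). In rES passage 30 it was 7, all lower, beside 76.3% (38% higher, 38.3% lower). These 5 comparisons share the EpiSC libraries. From day 3 to P2, 6 were called, 1 higher and 5 lower, beside 70.8% (37.5% higher, 33.3% lower). From P2 to rES passage 6 it was 7, 4 higher and 3 lower, beside 73% (35.5% higher, 37.5% lower). Against ESC, 6 were called in rES passage 6, 2 higher and 4 lower, beside 69.3% (36.3% higher, 33% lower). In rES passage 30 it was 7, 1 higher and 6 lower, beside 71.1% (35.3% higher, 35.8% lower), and in rES passage 30 without MM401 7, 2 higher and 5 lower, beside 71.3% (36.3% higher, 35% lower). The median log2 fold change of the 8 genes was -0.88 in ESC, -0.17 at day 3, -0.37 at P2, -1.05 in rES passage 6 and -1.41 in rES passage 30 against EpiSC, where the medians of all genes ran from -0.02 to 0.08. With total counts those medians of all genes moved to between -0.17 and -0.07, and the share of higher genes among those called was then 38.6% at day 3 and 45.3% at P2, against 50.6% and 55.5% as reported.

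With passage of the reverted line most of the 8 genes fell. From passage 6 to passage 30, 6 fell and none rose, where 25.6% of all genes were called, 14.4% lower and 11.3% higher. The 6 were Fos, Fosb, Fosl1, Fosl2, Jun and Junb, and Jund and Atf3 did not pass (Jund -0.26 ± 0.16, adjusted p = 0.296, and Atf3 0.01 ± 0.11, adjusted p = 0.959). The median over the 8 genes was -0.64, beside -0.01 for all genes. Of 33 other immediate early genes, 22 fell and 2 rose (median -0.33), among them Cyr61 (-1.07 ± 0.04), Ctgf (-0.65 ± 0.03), Plk2 (-0.91 ± 0.05) and Nr4a1 (-0.77 ± 0.05; adjusted p at most 1.91e-15 for the 4). Of 30 AP-1 targets known from other cells, 26 fell and none rose (median -0.69), among them the matrix protein tenascin C (Tnc, -1.32 ± 0.04), the protease Mmp3 (-1.06 ± 0.04) and the hyaluronan receptor Cd44 (-1.17 ± 0.05). All 20 feeder markers fell in the same comparison (median -1.03), the gene Mmp2 stands on both lists, and the part of feeder cells in these falls was not tested. The split of higher and lower calls over all genes depended here on the scaling: 43.9% of called genes were higher with TMM, 54.3% with RLE factors and 33.3% with total counts.

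Leaving out MM401 at passage 30 changed little among the 8 genes. Fos was 1.43-fold lower without MM401 (-0.52 ± 0.08, adjusted p = 5.48e-06) and lower in both libraries, at 20.4 and 16.9 CPM, against 25.9 and 27.6 CPM with it. Jund was 1.69-fold higher (0.75 ± 0.15, adjusted p = 0.0120), at 190 and 203 CPM, against 136 and 96.6 CPM with it. These 2 of 8 calls stand beside 19.7% called among all genes (10.4% higher, 9.3% lower). The size of the Jund rise depended on the rES passage 30 library kept, at 0.53 without replicate 2 and 1.03 without replicate 1. The call of Jund was lost without replicate 2 of the group without MM401 (0.70, adjusted p = 0.0734) and with only the 4 libraries compared (0.76, adjusted p = 0.217). Without rES passage 30 replicate 1, Jun (0.30, adjusted p = 0.00166) and Junb (0.36, adjusted p = 0.000688) were called as well. Of 33 other immediate early genes, 5 were higher and 4 lower without MM401 (median 0.04). Egr1, the immediate early zinc finger factor, was among the lower ones (97.9 ± 10.8 CPM without it and 143 ± 1.24 CPM with it, SD, n = 2 each, -0.55 ± 0.05, adjusted p = 7.48e-11), and Gadd45b, a growth arrest and DNA damage gene, among the higher ones (49.7 ± 1.46 CPM without it and 30.7 ± 0.51 CPM with it, 0.70 ± 0.06, adjusted p = 1.33e-10).

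The make-up of AP-1 RNA was compared per kilobase of exon, so that genes of different length can be set side by side. The 8 genes summed to 307 CPM per kb at MM401 day 3, 313 at MM401 P2, 178 in rES passage 6, 178 in rES passage 30 without MM401, 131 in rES passage 30 and 194 in ESC, against 521 in EpiSC. The Fos family took 7.96% of that sum at day 3, 12.4% at P2, 19.2% in rES passage 6, 8.38% in rES passage 30 without MM401, 14.6% in rES passage 30 and 13.5% in ESC, against 37.6% in EpiSC. In EpiSC the 2 libraries gave 36.3% and 39.0%, and in no library of another group was the share above 19.4%. Jund was the largest single share in all 7 groups, with 64.9% and 67.3% in rES passage 30 without MM401 at the top and 31.5% and 28.3% in EpiSC at the bottom. Fos itself made up 1.79% in ESC, against 26.7% in EpiSC. These shares were not tested.

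**Figure D4:**
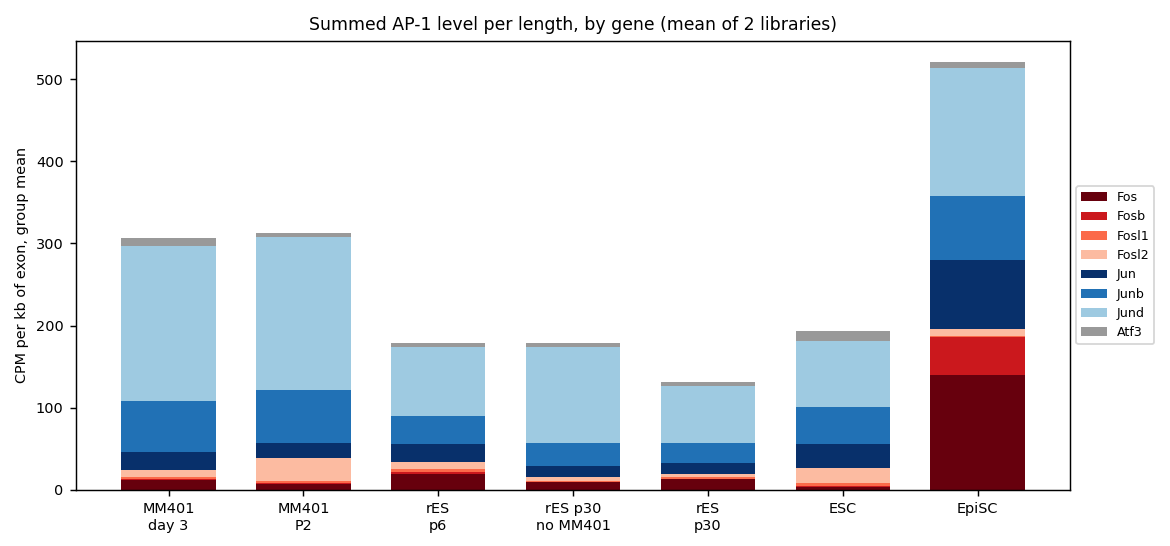
Stacked bars of exon-length-scaled level (CPM per kb, vertical axis, from 0) of the 8 AP-1 genes in the 7 groups, as means of 2 libraries. The EpiSC bar is the tallest at 521 CPM per kb, and the Fos family fills 37.6% of it, against 7.96% to 19.2% in the other groups.

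Other immediate early genes were split in direction against EpiSC. Of 33, 15 rose and 12 fell at day 3 (median 0.09), 18 rose and 12 fell at P2 (0.20), 15 rose and 14 fell in rES passage 6 (0.15), 11 rose and 17 fell in rES passage 30 (-0.47), and 15 rose and 12 fell in ESC (0.04). Egr1, like Fos, was highest in EpiSC and lowest in ESC, with 243 CPM at MM401 day 3, 89.8 at MM401 P2, 207 in rES passage 6, 97.9 in rES passage 30 without MM401, 143 in rES passage 30 and 47.2 in ESC, against 477 in EpiSC. Its log2 fold change against EpiSC was -3.34 ± 0.05 in ESC, -0.97 ± 0.04 at day 3 and -2.41 ± 0.04 at P2 (adjusted p at most 4.11e-23 for the 3), and in rES passage 6 it was higher than in ESC (2.14 ± 0.05, adjusted p = 8.66e-31). Its relatives Egr2, Egr3 and Egr4, named after their values were seen, were also below EpiSC in all 6 other groups. Btg2, an antiproliferative early gene, was lower in ESC too (-1.94 ± 0.05, adjusted p = 1.32e-29). Dusp4, a phosphatase of ERK, and Ctgf, a matrix protein and target of serum response and YAP signalling, were higher in ESC than in EpiSC (2.93 ± 0.06 and 1.61 ± 0.04, adjusted p = 4.67e-33 and 9.70e-33). At P2 Ctgf was also higher than in EpiSC (2.15 ± 0.04, adjusted p = 3.98e-37), where the feeder markers were higher as well.

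**Figure D5:**
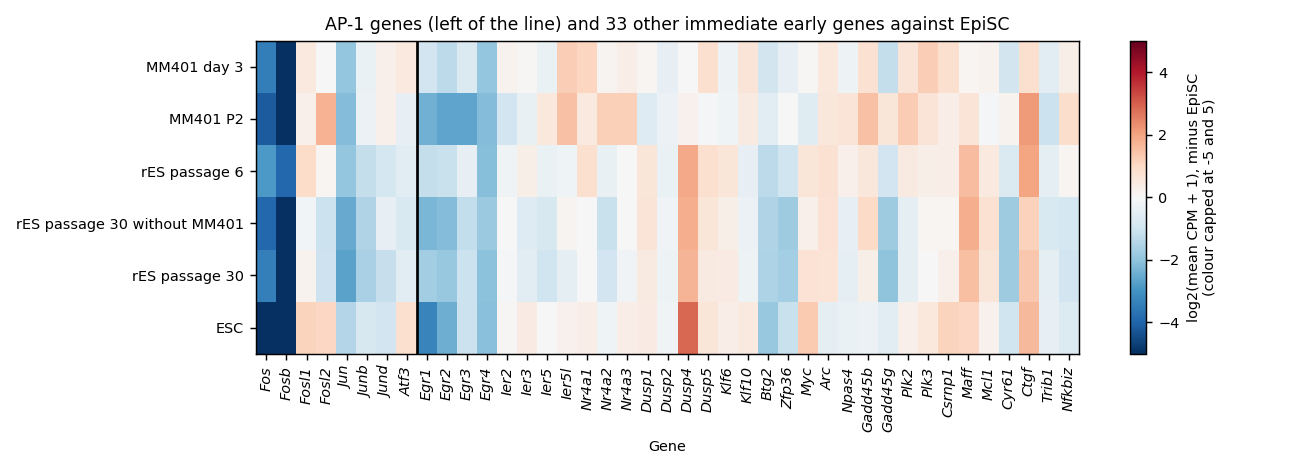
Colour map of log2(mean CPM + 1) minus EpiSC for the 8 AP-1 genes and 33 other immediate early genes (columns) in the 6 other groups (rows), with the colour capped at -5 and 5. Fos passes the cap in ESC only (-5.15). Fosb passes it in every group but rES passage 6 (-3.94), at -5.34 in ESC and lowest in rES passage 30 (-5.76). The other early genes are a mix of higher and lower levels.

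Targets of AP-1 known from other cells differed in direction against EpiSC from group to group, and more rose than fell at P2 and in ESC. Fos and Jun were lower than in EpiSC in every group tested. Over all genes, 42.1% were called higher and 33.8% lower at P2, and 37% and 37.5% in ESC. Of 30, 13 rose and 14 fell at day 3 (median -0.01), 22 rose and 8 fell at P2 (0.67), 14 rose and 10 fell in rES passage 6 (0.11), 9 rose and 16 fell in rES passage 30 (-0.27), and 21 rose and 6 fell in ESC (0.45). Mmp9, the gelatinase B gene, was lower in ESC (-3.87 ± 0.09, adjusted p = 9.77e-32), whereas Hbegf, a ligand of the EGF receptor (2.25 ± 0.06, adjusted p = 2.96e-30), and Hmox1, haem oxygenase (1.46 ± 0.04, adjusted p = 9.72e-29), were higher. At P2 the proteases Mmp2 (1.37 ± 0.04) and Mmp14 (1.34 ± 0.04) rose and the keratin gene Krt18 fell (-2.85 ± 0.08, adjusted p at most 1.03e-28 for the 3). All 20 feeder markers rose at P2 against EpiSC, and their part in the P2 rises was not tested.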

How the data were processed

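The authors deposited 1 table of raw read counts per gene, the only values used. RNeasy purification with a DNase step and single-end TruSeq sequencing are stated, per the labels' protocols. TopHat2, Subread, DESeq and mm9 are named, per the submitters' processing notes, without versions or roles. No source used here gives the library strand or how multi-mapping reads were counted. Left out were 2 columns that match no sample, and 27 gene names appear as dates (up to 0.254% of a library).

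Genes were kept with filterByExpr (16247 of 24015), scaled with TMM and tested with edgeR 4.0.16 (R 4.3.3), using its quasi-likelihood F test in robust form over all 14 libraries with 1 mean per group. Tests were two-sided, Benjamini-Hochberg adjusted over all genes of a comparison and called under 0.05. Standard errors are the absolute log2 fold change divided by the square root of F. Likeness is Pearson's r of 7 group means of log2 CPM (prior count 2), and levels per kb use exon lengths of GENCODE M21. Promoters came from RefSeq on GRCm38.p6, another build than mm9. GC content was found for 95.2% of genes tested.

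The members and gene lists were chosen with earlier results of these data known, the lists from general knowledge. All members are named, with up to 4 called genes of a list (smallest adjusted p, 5 CPM or more) and the 3 genes most like each member, and other genes are marked. A list gene that this rule names is not reported here, and counts over its list include it. The script was tested on simulated data. Alternatives were RLE factors, total counts, no filter, thinning to the shallowest library, a replicate block, a fit of only the 4 libraries compared, DESeq2 1.42.0, and leaving out each library. Leaving out the 4 deeper MM401 libraries was chosen after seeing the data. Same-numbered replicates did not deviate together over all genes (r from -0.03 to 0.04 over 21 pairs of groups). No pairing by number was seen, though a shared batch that acts on few genes would not show in these r.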

Additional observations from a re-analysis of the deposited data

Results flagged for a closer look

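The effect against EpiSC differed between MM401 P2 and MM401 day 3 for 6 of the 8 genes by the test of the difference itself (edgeR, adjusted over all genes). That is near the share over all genes, of which 70.8% were called in this comparison. The log2 difference, P2 minus day 3, was -0.73 for Fos, -0.81 for Fosb, -0.31 for Fosl1, 1.74 for Fosl2, -0.26 for Jun and -0.96 for Atf3. Fosl2 alone of these was higher at P2, where the feeder markers summed to 18340 and 18030 CPM, against 6235 and 6277 CPM at day 3. The call of Fosl1 was lost without MM401 day 3 replicate 2 (-0.25, adjusted p = 0.162) or MM401 P2 replicate 1 (-0.23, adjusted p = 0.214). It was also lost with total counts (-0.29, adjusted p = 0.0618), after thinning to the shallowest library (-0.23, 0.309), with only the 4 libraries compared (-0.34, 0.0571) and with DESeq2 (-0.35, 0.0897).

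The effect against EpiSC also differed between rES passage 30 and rES passage 6 for 6 of the 8 genes, all lower at passage 30. Among all genes, 25.6% were called in this comparison, 14.4% lower and 11.3% higher. The log2 difference was -0.56 for Fos, -2.21 for Fosb, -0.94 for Fosl1, -1.17 for Fosl2, -0.72 for Jun and -0.45 for Junb. The call of Junb was lost with only the 4 libraries compared (edgeR, adjusted p = 0.0858). Its difference was -0.69 without rES passage 30 replicate 1 and -0.25 without replicate 2.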

How the results depend on the processing

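Of 1120 results for single genes under an alternative, 1085 stayed on their side of the threshold (12 of them uncalled values whose sign changed), 24 lost the call, 10 gained it and 1 reversed: Fosl2 in rES passage 6 against EpiSC, at -0.0097 with total counts. The falls of Fos, Fosb and Jun against EpiSC held in every alternative run. For rES passage 30 without MM401 against rES passage 30, 1 member was called with only the 4 libraries compared, and 1 to 4 when each library was left out, against 2 as reported, and the genes called numbered 1991 (without the group's replicate 2) to 2751, against 3200. For rES passage 30 against passage 6 they numbered 2711 (without rES passage 6 replicate 1) to 3619, or 2757 without rES passage 6 replicate 2, against 4167. With no filter, Jund was called at day 3 (0.29), at P2 (0.28), and for rES passage 30 against passage 6 (-0.25) and ESC (-0.20). Fosl2 at day 3 was called with total counts (-0.18, adjusted p = 0.000959). With only the 4 libraries compared, the calls of Jund in rES passage 30 against EpiSC (adjusted p = 0.0533) and of Junb in rES passage 30 against passage 6 (0.0858) were lost, and Jund at P2 was called (0.19, adjusted p = 0.0290). Jund was called in rES passage 30 against ESC without rES passage 30 replicate 1 (-0.47, adjusted p = 0.00147). Its call without MM401 against ESC (0.56, adjusted p = 0.0112) was lost without that group's replicate 2 (0.0555) or ESC replicate 1 (0.0524). With the replicate block, 12048 genes were called in ESC against EpiSC, against 12103 without it, and among the members Fosl2 in rES passage 6 lost its call (adjusted p = 0.0503). Fosl1 held 44 to 156 counts per library outside the deeper MM401 libraries, which limits small differences.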

Other observations

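The kinases and factors upstream of AP-1 were split in direction. Of 26, 12 rose and 12 fell in ESC against EpiSC (median 0.05), 13 rose and 11 fell at day 3, and 12 rose and 10 fell at P2. Rps6ka1, an ERK-activated S6 kinase, was higher than in EpiSC at day 3 (1.53 ± 0.04), at P2 (1.28 ± 0.04) and in ESC (0.92 ± 0.04). Creb1, a factor that binds the cAMP response element, was lower at day 3 (-1.34 ± 0.06), at P2 (-1.26 ± 0.06) and in ESC (-1.27 ± 0.07), with adjusted p at most 2.46e-20 for these 6 values (edgeR).

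Other leucine zipper partners rose more often than they fell in ESC against EpiSC, 13 against 2 of 18 tested (median 0.91, beside 0.00 for all genes). Atf4, the main factor of the integrated stress response, rose by 1.55 ± 0.04, Ddit3 by 2.36 ± 0.08, Atf5 by 1.18 ± 0.05 and Jdp2, a repressor that pairs with Jun proteins, by 1.49 ± 0.07. In rES passage 30 against ESC 15 of the 18 fell, with Atf4 at -1.19 ± 0.04 and Atf5 at -1.87 ± 0.06. Atf4 and Ddit3 stand on the stress list too. Heat shock genes summed to 9077 and 8869 CPM at day 3 and to 5899 to 7181 CPM in the other libraries. Most of the day 3 sum was 1 gene, Hsp90ab1, at a mean of 6545 CPM. Of the 12 genes, 8 were higher and 2 lower at day 3 than in EpiSC, beside 38.7% and 37.9% of all genes. Hspa1a had its lowest group mean at day 3 (2.40 CPM). Hsp90ab1 and Hspa1a were named after their values were seen.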
